A study of Mus musculus with 2 samples.

Results

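Aminoacyl-tRNA synthetases were examined in the femoral cartilage of mouse embryos lacking *Tric-b*. The members were the genes of a fixed list of 36 synthetases, 20 cytosolic enzymes and 16 mitochondrial enzymes whose symbols end in 2, and each was followed through every probe set annotated to that gene alone. Probe sets were found for 35 of them, 19 cytosolic and 16 mitochondrial, among 18193 named genes on the array. *Dars*, for cytosolic aspartyl-tRNA synthetase, was not analysed here. The 35 genes had 72 of the 45037 probe sets.

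Both specimens came from E17.5 embryos that carried the *Tric-b* knockout on the strains given in the labels, C57BL/6J and 129Sv. One (R) was the plate section in which round chondrocytes are enriched. The other (C/H) was the section of columnar and hypertrophic chondrocytes. The design text describes each RNA as a mixture of 3 preparations, hybridized to 1 GeneChip Mouse Genome 430 2.0 array. Each zone therefore had 1 array, so no difference has a replicate check, a test or a standard error, and the values compare zones within the knockout. Wild-type arrays were not analysed here.

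A synthetase joins an amino acid to its tRNA and so supplies the ribosome with its substrate. The cytosolic and the mitochondrial ribosomes use separate sets of these enzymes, all encoded in the nucleus, and the mitochondrial enzymes serve only the few proteins encoded by mitochondrial DNA. *Gars* and *Kars* are exceptions, as each gene gives both the cytosolic and the mitochondrial enzyme. Several cytosolic synthetases are held in a multi-synthetase complex, and many cytosolic synthetase genes are known targets of ATF4, the transcription factor translated when eIF2α is phosphorylated. Chondrocytes secrete large amounts of collagen, which draws heavily on charged glycine and proline tRNAs.

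The members' promoters were inspected for the C/EBP-ATF response element, the composite site that ATF4 binds with C/EBP partners. This motif was chosen after the signal differences were seen. RefSeq promoter sequences on GRCm38.p6, from 250 bases before to 50 after an annotated start, were given for 26 of the 35 members, and a gene with more than 1 start was counted once. The letters TGATGNAA on either strand lay in the promoter of 5 of 12 cytosolic members and 0 of 14 mitochondrial members, against 4.51% of 27025 genes. The stricter letters TGATGCAA, which overlap the first motif by construction, lay in 4 of the 12 and 0 of the 14, against 1.03% of genes. With shares this low over all genes, 0 of 14 says little about the mitochondrial list. The stretches below run from 130 bases before to 20 after the start of the 5 matching genes. *Iars2* is shown as the mitochondrial counterpart of *Iars* with no match, and capitals mark the matches to TGATGNAA on either strand.
Aars: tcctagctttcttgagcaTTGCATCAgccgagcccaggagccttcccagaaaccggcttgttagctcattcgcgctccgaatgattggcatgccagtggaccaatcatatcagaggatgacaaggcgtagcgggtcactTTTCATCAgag
Gars: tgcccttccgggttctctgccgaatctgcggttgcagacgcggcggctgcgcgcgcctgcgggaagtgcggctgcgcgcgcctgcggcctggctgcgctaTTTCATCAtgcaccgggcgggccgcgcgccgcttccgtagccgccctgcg
Iars: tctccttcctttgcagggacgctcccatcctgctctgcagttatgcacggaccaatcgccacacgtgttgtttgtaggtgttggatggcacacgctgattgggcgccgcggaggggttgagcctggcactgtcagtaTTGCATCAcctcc
Tars: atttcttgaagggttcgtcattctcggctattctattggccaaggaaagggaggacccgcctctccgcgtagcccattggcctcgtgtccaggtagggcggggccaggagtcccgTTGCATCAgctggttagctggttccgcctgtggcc
Yars: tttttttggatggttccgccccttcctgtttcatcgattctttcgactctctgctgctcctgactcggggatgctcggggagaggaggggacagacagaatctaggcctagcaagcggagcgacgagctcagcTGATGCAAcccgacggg
Iars2: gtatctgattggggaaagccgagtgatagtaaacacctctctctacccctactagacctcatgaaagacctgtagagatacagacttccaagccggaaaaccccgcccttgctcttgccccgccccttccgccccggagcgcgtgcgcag
On GRCm38.p6 these stretches lie at chr8:111033712-111033861 (plus strand) for *Aars*, chr6:55037871-55038020 (plus) for *Gars*, chr13:49682000-49682149 (plus) for *Iars*, chr15:11399639-11399788 (minus) for *Tars*, chr4:129189773-129189922 (plus) for *Yars* and chr1:185329382-185329531 (minus) for *Iars2*. The match began at position -30 from the start in *Gars*, -15 in *Tars*, 4 in *Yars* and 8 in *Iars*, and *Aars* held matches beginning at -112 and 10. A match describes the letters in this window and shows no binding.

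The cytosolic synthetases had a higher signal in the C/H array than in the R array. All 19 measured genes lay on that side, with log2 differences (C/H minus R) from 0.28 to 0.85 and a median of 0.49, which is 1.40-fold. Of all 12761 compared genes, 46.8% lay on that side and 53.2% on the other, and their median log2 difference was -0.04. The differences were modest, as 4 of the 19 reached 1.5-fold (10.4% of all compared genes) and 0 reached 2-fold (4.28%). In the other direction, 15.3% of all compared genes reached 1.5-fold and 6.25% reached 2-fold, and 0 cytosolic synthetases did either. The SD of the log2 difference among the 19 genes was 0.15. Between probe sets of the same gene, over 5446 genes, it was 0.34. As these were bulk specimens, more transcript per cell and more cells carrying it cannot be told apart.

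The mitochondrial synthetases did not all lie to one side, and their count on each side depended on the scaling. Of 14 compared genes, 9 had the higher signal in the C/H array and 5 in the R array. Their log2 differences ran from -0.76 to 0.64 with a median of 0.15, which is 1.11-fold, and an SD of 0.35. The 9 became 11 under median centring and 12 after quantile normalization or lowess centring, with *Wars2* and *Yars2* turning sign in all of these and *Cars2* in the last pair. The share of all compared genes on the C/H side moved too. It was 46.8% as deposited, 54.6% under median centring, 52.4% after quantile normalization and 51.3% after lowess centring. *Aars2* and *Mars2* lay under the detection floor of 65.9 in both arrays and were not compared.

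**Figure D1:**
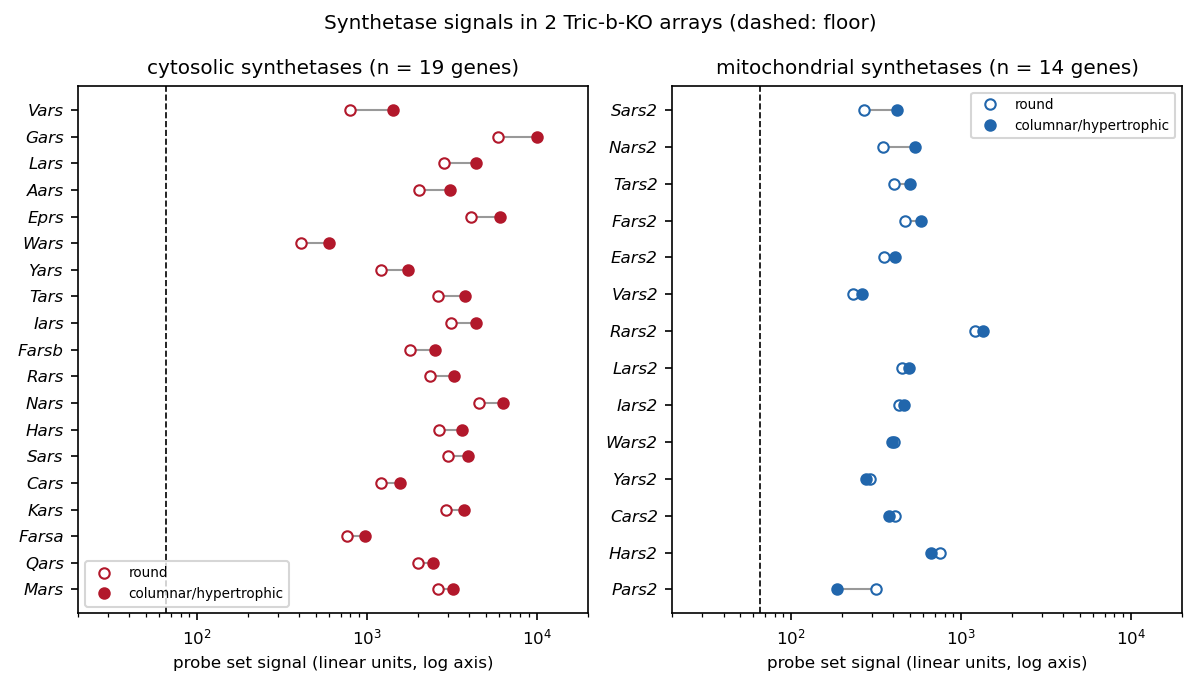
Signals of the compared cytosolic (left, 19 genes) and mitochondrial (right, 14 genes) synthetases on the round (R, open circles) and columnar/hypertrophic (C/H, filled circles) arrays, 1 array per zone, on a log axis of linear signal, with the brightest probe set of each gene and the floor of 65.9 dashed. All 19 cytosolic genes have the filled circle on the right, whereas the mitochondrial genes run from *Sars2* (268 and 419) at the top to *Pars2* (315 and 186) at the bottom.

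Among cytosolic enzymes outside the multi-synthetase complex, the largest difference was that of *Vars*, for valyl-tRNA synthetase. Its signal was 791 in the R array and 1424 in the C/H array, 1.80-fold apart. *Gars*, for the enzyme that charges glycine tRNA in both compartments, had signals of 5894 and 10033 in the same order, which holds for every pair of signals given here, 1.70-fold apart. *Aars*, for alanyl-tRNA synthetase, had signals of 2021 and 3069.6 on its brightest probe set, 1.52-fold apart, and a log2 difference of 0.87 on its second. These 3 genes, with *Lars* of the complex, were the cytosolic members past 1.5-fold as deposited. *Vars* and *Gars* were past it in all 9 other settings that kept them, whereas *Aars* and *Lars* fell short, at 0.56 and 0.55 on the log2 scale with quantile normalization and 0.54 each with lowess centring, and *Wars* passed it, at 0.66 in both.

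The other enzymes outside the complex lay under 1.5-fold as deposited. *Wars*, for tryptophanyl-tRNA synthetase, had signals of 411 and 595 in the R and C/H arrays, with log2 differences between 0.51 and 0.73 over its 4 probe sets. *Yars*, for the tyrosine enzyme, had signals of 1212 and 1742. *Tars*, for the threonine enzyme, had signals of 2639 and 3779. The log2 differences of *Yars* and *Tars* were 0.52 each, close to that of *Wars* at 0.53. *Nars*, for asparaginyl-tRNA synthetase, read 4545 and 6318. Its probe sets differed by 0.48 and 0.71 on the log2 scale. *Hars*, for the histidine enzyme, had signals of 2668 and 3651 and *Sars*, for the serine enzyme, 3018 and 3942. Both genes had 2 probe sets that gave nearly the same log2 difference, 0.45 and 0.50 for *Hars* and 0.39 and 0.40 for *Sars*. *Cars*, for cysteinyl-tRNA synthetase, had signals of 1218 and 1569.9 on its brighter probe set. Its second probe set was near the floor in the R array, at 71.4, and under it in the C/H array, at 13.3. Its log2 difference, with the second value raised to the floor, was -0.11, the other direction.

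Cytosolic phenylalanyl-tRNA synthetase is built from the products of *Farsa* and *Farsb*, and both genes gave probe sets that disagreed. The brightest probe set of *Farsa* had signals of 762 and 971 in the R and C/H arrays. Its other 3 probe sets were dimmer, from 185 to 214 in the R array, and had log2 differences of -0.97, -0.94 and -0.11. *Farsa* therefore had a mean of -0.42 over its probe sets, and its direction depended on the probe set used. The brightest probe set of *Farsb* read 1786 and 2501. Its 4 probe sets ran from -0.04 to 0.51 in the log2 difference, 3 of them above 0.

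Of the 8 synthetases of the multi-synthetase complex, 7 were measured, and all 7 had the higher signal in the C/H array. Their median log2 difference was 0.48, beside 0.50 for the 12 cytosolic genes outside the complex. *Lars*, for leucyl-tRNA synthetase, had signals of 2836 and 4414 in the R and C/H arrays, 1.56-fold apart. *Eprs*, whose product charges both glutamate and proline tRNAs, had signals of 4080.4 and 6083, 1.49-fold apart, with log2 differences between 0.21 and 0.62 over its 4 probe sets. *Iars*, for the isoleucine enzyme, had signals of 3141 and 4401, and the log2 differences of its probe sets were 0.49 and 0.52. These members of the complex thus lay near or above the cytosolic median.

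*Rars*, for arginyl-tRNA synthetase, had signals of 2339 and 3268, and *Kars*, which charges lysine tRNA in both compartments, had 2909.6 and 3717. The smallest cytosolic differences were those of *Mars*, for the methionine enzyme, with signals of 2633 and 3201 in the R and C/H arrays, and of *Qars*, for the glutamine enzyme, with 1994 and 2436. The bright probe sets of *Qars* disagreed. A second probe set read 2109.5 in the R array and 1877 in the C/H array, the other direction, and the 4 probe sets ran from -0.38 to 0.29 in the log2 difference.

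**Figure D2:**
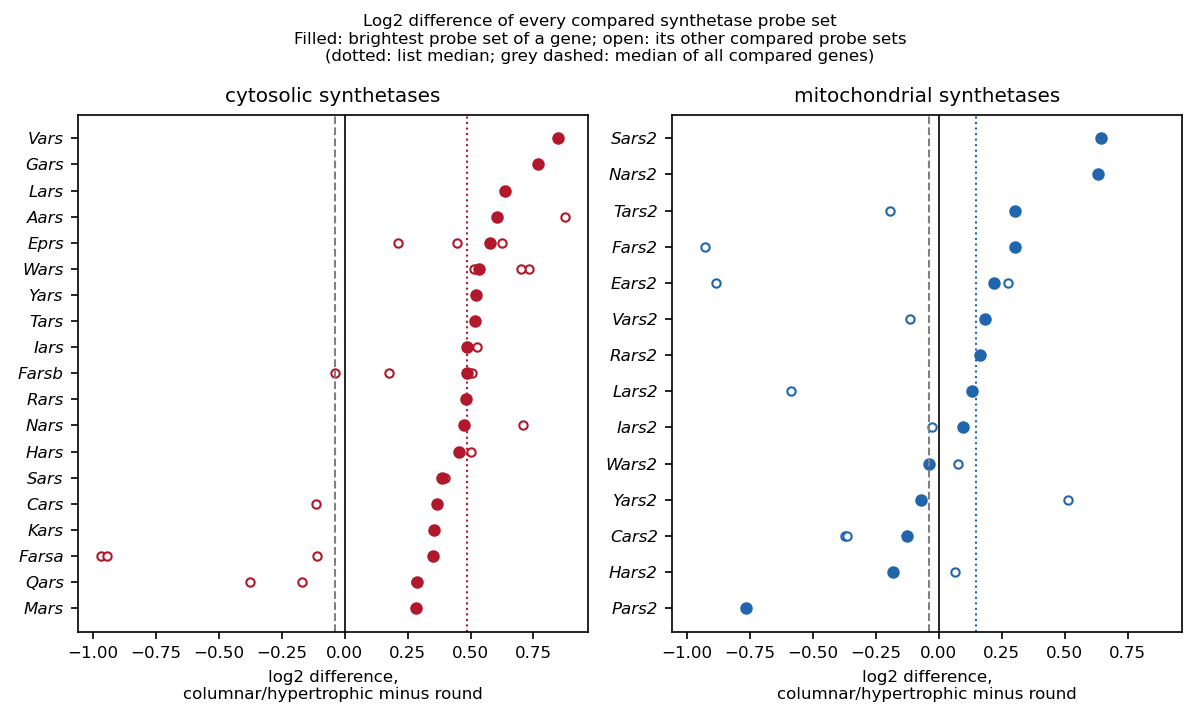
Log2 difference in signal (C/H minus R) of every compared probe set of the cytosolic (left) and mitochondrial (right) synthetases, with the brightest probe set of a gene filled and the others open, the list median dotted and the median of all compared genes (-0.04) dashed grey. The filled cytosolic circles lie between 0.28 and 0.85, and open circles left of 0 belong to *Cars*, *Farsa*, *Farsb* and *Qars*.

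Counted by probe set, the contrast between the compartments was also seen. Of 40 cytosolic probe sets, 33 had the higher signal in the C/H array and 7 in the R array, with a median log2 difference of 0.48. Of 26 mitochondrial probe sets above the floor, 13 lay on each side, with a median of 0.02. The share of all 29258 compared probe sets with the higher signal in the C/H array was 42.4%, with 57.6% on the other side, and their median was -0.09. Probe sets of one gene share its transcripts and are not independent. Among genes with several compared probe sets, all probe sets had the higher signal in the C/H array for 7 of 11 cytosolic genes and 0 of 10 mitochondrial genes, beside 25.1% of all 6291 such genes. Both signs were found within 4 of the 11 and 9 of the 10, beside 40.5%.

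Among mitochondrial enzymes, 2 genes were past 1.5-fold in the C/H array and 1 in the R array (10.4% and 15.3% of all compared genes). *Sars2*, for mitochondrial seryl-tRNA synthetase, had signals of 268 and 419 in the R and C/H arrays, 1.56-fold apart. *Nars2*, for the asparagine enzyme, had signals of 347 and 538, 1.55-fold apart. *Pars2*, for the proline enzyme, differed the other way, with signals of 315 and 186. Each of the 3 values rests on a single compared probe set. The log2 difference of *Pars2* was -0.76 as deposited, -0.58 with quantile normalization and -0.56 with lowess centring, and the last pair fell short of 1.5-fold.

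The other mitochondrial genes differed by at most 1.23-fold. *Fars2*, for the phenylalanine enzyme, had signals of 471 and 581 in the R and C/H arrays. Its second, dimmer probe set was under the floor in the C/H array, at 62.0. With that value raised to the floor, its log2 difference was -0.93. *Tars2*, for the threonine enzyme, read 406 and 501. Its 2 probe sets gave 0.30 and -0.19 as log2 differences. *Ears2*, for the glutamate enzyme, had signals of 351 and 409, and 1 of its 3 compared probe sets gave -0.88. *Vars2*, for the valine enzyme, had signals of 231 and 262, and *Rars2*, for the arginine enzyme, had 1202 and 1345. *Lars2*, for the leucine enzyme, had 452 and 496, and *Iars2*, for the isoleucine enzyme, had 430.0 and 460.3. These 4 genes had log2 differences from 0.10 to 0.18 on their brightest probe sets. A dimmer probe set gave -0.11 for *Vars2*, -0.59 for *Lars2* and -0.03 for *Iars2*. The directions of *Fars2*, *Tars2*, *Ears2*, *Vars2*, *Lars2* and *Iars2* thus rested on the choice of probe set.

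*Wars2* and *Yars2*, for the tryptophan and tyrosine enzymes, had nearly equal signals in both arrays, 405 and 394 for *Wars2* and 291 and 277 for *Yars2*, on their brightest probe sets. The second probe set of *Wars2* gave a log2 difference of 0.08, and that of *Yars2* gave 0.51, with signals of 107 and 152. *Cars2*, for the cysteine enzyme, had signals of 411 in the R and 377 in the C/H array, and all 3 of its probe sets were lower in the second. *Hars2*, for the histidine enzyme, read 754 and 665. Its 2 probe sets gave -0.18 and 0.07 as log2 differences. *Aars2* had signals of 54.9 and 33.1 on its only probe set. *Mars2* had signals between 2.97 and 24.2 over 2 probe sets, so both genes were below what could be compared.

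Setting the enzymes of one amino acid against each other gave 16 pairs, of which 14 could be compared. In 12 of these the cytosolic enzyme had the larger log2 difference, and the median of the cytosolic minus the mitochondrial difference was 0.44. The gap was widest for proline, at 1.34, where *Eprs* and *Pars2* differed in direction. It was 0.66 for valine (*Vars* and *Vars2*), 0.63 for histidine, 0.59 for tyrosine and 0.57 for tryptophan. The exceptions were serine, at -0.26, and asparagine, at -0.16, for which the mitochondrial gene had the larger difference. *Eprs* served in the pairs for both glutamate and proline. These are gaps between 2 differences within the same pair of arrays, not between signal levels, which are not on a common scale across probe sets.

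**Figure D3:**
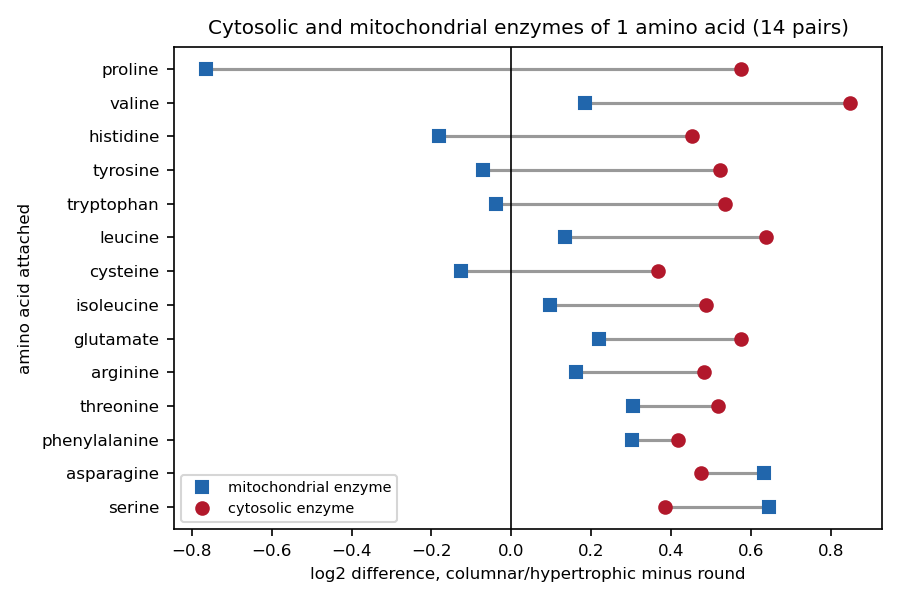
Log2 difference in signal (C/H minus R) of the cytosolic (red circles) and mitochondrial (blue squares) enzymes for each of 14 amino acids, with *Farsa* and *Farsb* averaged for phenylalanine. The circle lies to the right of the square in all pairs but asparagine and serine, and the widest gap is that of proline (1.34).

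Signal strength differed between the lists, so each list was set beside the genes within its own range of signal. The ranges are wide, and genes within them were not matched to the signals of the members. The mean signals of the cytosolic genes ran from 495 to 7690.1 and those of the mitochondrial genes from 242 to 1271. Of 6365 compared genes within the cytosolic range, 50.9% had the higher signal in the C/H array, and their median log2 difference was 0.01. Of 5323 compared genes within the mitochondrial range, 43.1% did so, with a median of -0.08. The cytosolic median of 0.49 was 0.47 above that of the genes in its own range, and the mitochondrial median 0.23 above that of the genes in its range. Against all genes, the cytosolic median was 0.52 higher as deposited, and between 0.40 and 0.57 higher in the other settings. The gap between the lists was more sensitive, at 0.34 as deposited, 0.18 with quantile normalization and 0.16 with lowess centring.

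**Figure D4:**
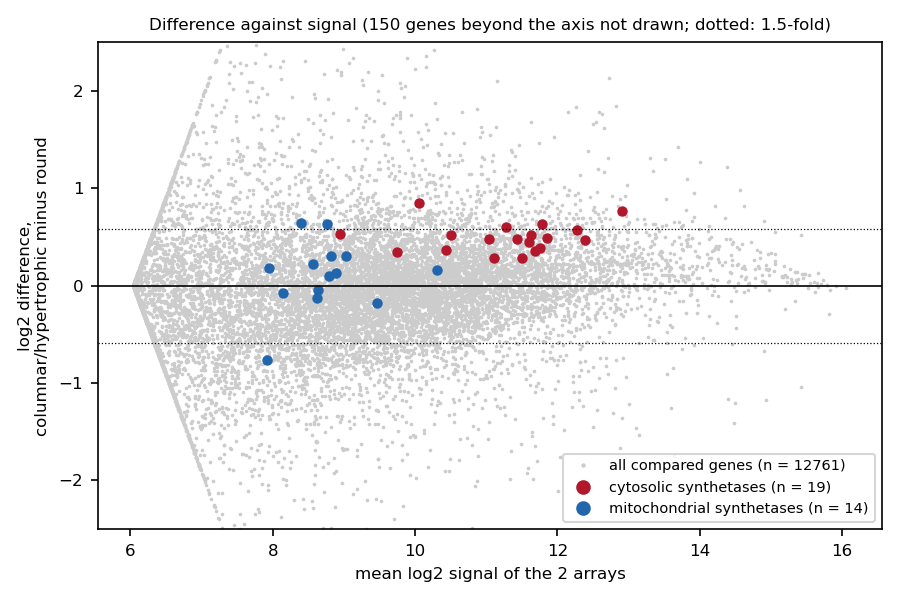
Log2 difference in signal (C/H minus R) against the mean log2 signal of the 2 arrays for all 12761 compared genes (grey), the 19 cytosolic (red) and the 14 mitochondrial (blue) synthetases, with 1.5-fold dotted and 150 genes beyond the axis not drawn. The red points lie above 0 throughout, at mean signals mostly above those of the blue points.

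The cytosolic genes were also divided by known sub-groups. The 12 genes commonly counted as ATF4 targets had a median log2 difference of 0.52, from 0.28 (*Mars*) to 0.77 (*Gars*), and the 7 other measured genes 0.45, from 0.29 (*Qars*) to 0.85 (*Vars*). By catalytic class, the class I enzymes had a median of 0.50 over 10 genes and the class II enzymes 0.48 over 10, with *Eprs* in both. Among mitochondrial enzymes, class I had a median of 0.12 over 8 compared genes and class II 0.30 over 6. The 5 cytosolic genes with TGATGNAA in the promoter printed above had log2 differences from 0.49 to 0.77 with a median of 0.52. The 7 cytosolic genes with a promoter and no match had 0.28 to 0.58 with a median of 0.35, so the ranges overlapped at *Eprs*. Among these, *Farsb*, at 0.486, lay just under *Iars*, at 0.487, and *Farsa*, *Farsb* and *Qars* had probe sets of both signs. The motif lay in 5 of the 8 ATF4 target genes with a promoter and in 0 of the 4 others. The motif split and the ATF4 split are therefore not independent. The 7 cytosolic genes for which no promoter was given, among them *Vars* and *Lars*, had a median of 0.48.

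The scaffold proteins of the multi-synthetase complex had differences in the same direction. *Eef1e1* (AIMP3) had signals of 1976 and 3912 in the R and C/H arrays, 0.99 on the log2 scale. *Aimp1* had a log2 difference of 0.53 and *Aimp2* one of 0.21. Of 11 other tRNA charging genes, 7 lay on the C/H side, beside 46.8% of all compared genes, with a median of 0.04. *Gatb* and *Qrsl1*, subunits of the amidotransferase that makes mitochondrial glutaminyl-tRNA, had 0.84 and 0.71, and the third subunit gene, *Gatc*, had -0.27. *Aarsd1*, for a protein that hydrolyses mischarged alanine tRNA, had 0.74, and *Dtd2*, for an enzyme that edits wrongly charged tRNAs, had -0.98.

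Other parts of the translation machinery had list medians between those of the mitochondrial and the cytosolic synthetases. Of 4 cytosolic elongation factor genes, 3 were on the C/H side, with a median log2 difference of 0.26. Of all compared genes, 46.8% were on that side. *Eef1d* had 0.44. *Eef1a1* had signals of 59446 and 57625, where the highest on the arrays were 68899 and 67986, and saturation was not tested. *Eef1a1* was the only gene of the 4 with a negative difference. Without it, 3 of 3 were on the C/H side by construction, with a median of 0.32. Of 8 mitochondrial translation factor genes, 5 were on that side, with a median of 0.17 and none past 1.5-fold. The mitochondrial ribosomal proteins, however, had 66 of 76 genes on that side and a median of 0.31, with *Mrps16* highest at 0.91 and *Mrpl28* lowest at -0.82. Apart from these lists, ATF4 and 19 of its other targets had 18 of 20 on that side. Their median was 0.49, beside 0.49 for the cytosolic synthetases. *Psph*, for a serine synthesis enzyme, was highest at 1.46 and *Cebpb* lowest at -0.15, and *Slc7a11* had -0.02. *Atf4* itself had 0.41, *Xpot*, for the exportin of tRNA, 0.50, *Chac1* 0.56, *Ddit3* 0.19 and *Trib3* 0.11. Besides *Psph*, those past 1.5-fold in the C/H array were *Slc7a5* at 0.87, *Psat1* at 0.80, *Phgdh* at 0.76 and *Asns* at 0.68. These made 5 of 20, beside 10.4% of all compared genes, and 0 passed it in the R array.

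The specimens were checked against zone markers, and markers of other tissues moved with the zones too. Of 7 columnar and prehypertrophic markers, 6 were at least 2-fold higher in the C/H array, as were 3 of 4 compared hypertrophic markers. Of 7 round or resting markers, 6 were at least 2-fold higher in the R array. Over all compared genes, 4.28% were 2-fold higher in the C/H array and 6.25% in the R array. The 3 hypertrophic markers, *Col10a1*, *Ibsp* and *Alpl*, were under the floor in the R array, so their differences are bounds. The fourth, *Vegfa*, went the other way, with signals of 3095 in the R and 1877 in the C/H array, a log2 difference of -0.72. *Mmp13*, of terminal hypertrophic cells, was under the floor in both arrays. The 5 cartilage markers had a median log2 difference of 0.20, with a summed signal of 135541 in the R and 163507 in the C/H array. Of 9 perichondrium, tendon and fibroblast markers, 8 were higher in the R array, with summed signals of 84291 and 33209. The 6 skeletal muscle markers had sums of 202 and 865, and *Myh3*, *Myh8* and *Myog* were under the floor in both arrays. Endothelial markers had sums of 332 and 277, erythroid markers 98.7 and 95.4, and myeloid and osteoclast markers 1474 and 1641. *Ctsk* alone gave 1231 and 1385 of the last pair. These sums include signals under the floor, as in 2 of 3 erythroid genes in the R array and all 3 in the C/H array. The part of these tissues in the synthetase differences was not tested.

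**Figure D5:**
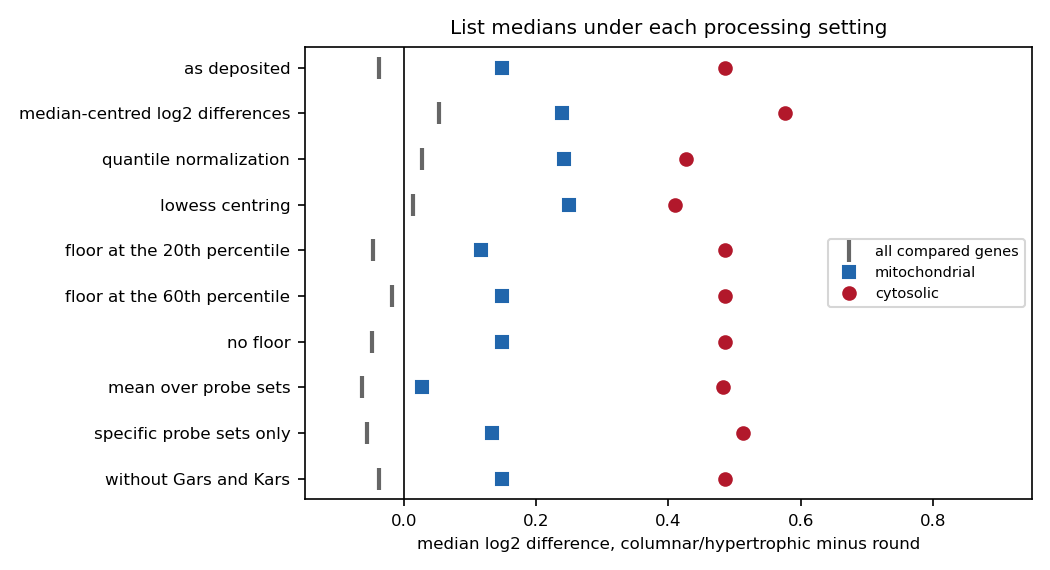
Median log2 difference (C/H minus R) of the cytosolic synthetases (red circles), the mitochondrial synthetases (blue squares) and all compared genes (grey ticks) as deposited and under 9 other processing settings. The circles stay between 0.41 and 0.58 and the squares between 0.03 and 0.25.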

How the data were processed

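Gene expression was measured on 2 arrays, 1 per zone of *Tric-b*-knockout cartilage, and grouped by the sample titles. The authors deposited linear intensities, 1 per probe set. MAS5 is named, without a version, in the submitters' processing notes, whereas the paper names robust multiarray analysis for its heatmaps. The trimmed means (2% at each end) were 497 and 496, and 27596 and 26448 probe sets lay above the floor in the round and columnar/hypertrophic arrays. The number of arrays limits the precision.

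Names came from the platform annotation, checked through Entrez identifiers against RefSeq (GRCm38.p6). A detection floor of 65.9 was set at the 40th percentile of the signals of both arrays. Probe sets at or under it in both arrays were left out, and a signal under it in 1 array was raised to it. Genes were represented by their brightest probe set (mean log2 signal). Differences were counted at 1.5-fold and 2-fold.

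The members, gene lists, sub-groups and the rule for named genes (all members, and of related lists those past 1.5-fold or up to 4 with the largest difference, of which some are given) were chosen with earlier results of these data known. *Gatc*, *Atf4* and some other genes of the related lists were named outside that rule. The promoter motif and the ranges of signal strength were added after the differences were seen. Alternatives covered scaling, floor, probe set choice, and leaving out *Gars* and *Kars*. Steps were tested on simulated data. The tools were statsmodels 0.14.6 (lowess, span 0.3), pandas 2.3.3, numpy 2.4.6 and matplotlib 3.10.9, under Python 3.11.15.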

Additional observations from a re-analysis of the deposited data

How the results depend on the processing

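No paired analysis was possible because the zones had a single array each and gave no test. Over 9 alternatives, 78 list values and counts moved by less than the tolerance and 12 by more, and none reversed. Some of the 78 could not move, so their number does not measure robustness. The floor settings left every cytosolic value as deposited, and median centring cannot change the gap or the pair count. Leaving out *Gars* and *Kars* cannot touch the mitochondrial list. The tolerance was the SD between probe sets of a gene, 0.34, divided for list medians by the square root of the list's size, and 1.5 times for counts. It is a convention for comparing settings that treats the genes of a list as independent. It does not measure variation between arrays or RNA preparations and is not a standard error of a zone difference. The cytosolic median was 0.58 when the log2 differences were median-centred, with 8 genes past 1.5-fold in the C/H array. The share of all compared genes past it there was 13.2%, beside 10.4% as deposited. The mitochondrial median was 0.24 after quantile normalization, 0.25 after lowess centring and 0.027 with the mean over probe sets, and the gap between the lists was 0.18, 0.16 and 0.46 in these settings. The mitochondrial genes past 1.5-fold on the round side numbered 0 under quantile normalization and under lowess centring, and 2 under the 20th percentile floor and without a floor. Of all compared genes, 11.9%, 11.5%, 19.8% and 23% were past it on that side, in the same order of settings. All compared cytosolic genes were on the C/H side except *Farsa* with the mean over probe sets (18 of 19), and *Farsa* and *Qars* on specific probe sets only (16 of 18). Of the values of single genes, 254 stayed within 0.34 and 6 moved by more, those of *Farsa*, *Ears2*, *Fars2* and *Lars2* with the mean over probe sets and of *Farsa* and *Qars* on specific probe sets. The 254 include values that the floor settings repeat and values that median centring shifts by the same amount for every gene. Of all genes past 1.5-fold, 40.5% were on the C/H side as deposited, 51.6% when median-centred, 51.8% after quantile normalization and 53.1% after lowess centring. The cause was not tested. Faint mitochondrial probe sets limit that list, as 6 of 32 lay under the floor in both arrays.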

Other observations

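*Hars* and *Hars2* were the only members that are neighbouring protein-coding genes in the annotation, where they overlap at their ends. They had log2 differences of 0.45 and -0.18 on their brightest probe sets. That of *Hars2* was 0.07 on its second probe set, so its sign depends on the probe set, and both probe sets of *Hars* lay above both of *Hars2*.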
